A study of Mus musculus with 12 samples.

Results

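Lypd1, Sostdc1, Casp1, Anxa3 and Dmrta2 are 5 genes chosen by their late-early change, which differed mainly in one of a pair of peripheral neural stem cell lines. Their levels were followed with all 6 array probes that carry these symbols, out of 25697 probes on the array, and all 6 passed the detection filter. The genes were thus 5 of 10144 genes tested.

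Gene expression was measured with Illumina MouseRef-8 v2 bead arrays in 6 groups of mouse cells, with 2 arrays per group. The groups were late and early peripheral neural stem cells from adult lung (alpNSCs-late and alpNSCs-early), late and early peripheral neural stem cells from embryonic limb (elpNSCs-late and elpNSCs-early), Control-NSC and Fibroblasts. Control-NSC are the brain neural stem cells of the study. The cells of all 6 groups were labelled as a mixture of the strains C57BL/6, CD1 and C3H, with no genetic change or treatment named. The study derived limb and lung lines both with and without a short exposure to low-pH medium, and its array comparison is described for lines derived with it, so low-pH derivation is likely here. The labels name neither this nor what separates early from late cells, nor how the Fibroblasts were grown. The labels name 1 line per tissue, so tissue and line cannot be told apart. The methods call the replicates biological, but no label names separate cultures, so the tests may cover technical spread only. Detected probes numbered 11801 to 12836 per array, and replicate arrays correlated at r = 0.990 to 0.996. The 5 neural stem cell markers (Sox2, Nes, Olig2, Fabp7 and Slc1a3) were detected on all arrays of the peripheral lines and of Control-NSC, while none of 5 fibroblast markers (Col1a1, Col1a2, Col3a1, Dcn and Lum) was.

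Neural stem cells divide in culture and can yield neurons and glia, and their transcription depends on tissue of origin, region and culture history. The 5 genes have unrelated roles. Lypd1 (also Lynx2) is a membrane-anchored protein of the Ly6 family that dampens nicotinic acetylcholine receptors. Casp1 is the protease that inflammasomes activate and that matures interleukin-1 beta and interleukin-18. Sostdc1 (also ectodin or Wise) is secreted and antagonizes BMP ligands and modulates Wnt signalling through Lrp receptors. Anxa3 is a calcium-dependent phospholipid-binding annexin. Dmrta2 (also Dmrt5) is a transcription factor of the doublesex family that patterns the embryonic cortex and maintains neural progenitors in the mouse.

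RefSeq promoter sequences (build GRCm38.p6, 300 bases around the start) were available for 3 of the 5 genes, and are shown because these 3 include both genes with a change mainly in limb cells. Lypd1 has 3 listed starts, of which the outermost is shown. Capitals mark CCAAT on either strand (CCAAT or ATTGG), which 37.4% of the 32851 promoters of this length contained.
Lypd1, chr1:125912879-125913178, minus strand: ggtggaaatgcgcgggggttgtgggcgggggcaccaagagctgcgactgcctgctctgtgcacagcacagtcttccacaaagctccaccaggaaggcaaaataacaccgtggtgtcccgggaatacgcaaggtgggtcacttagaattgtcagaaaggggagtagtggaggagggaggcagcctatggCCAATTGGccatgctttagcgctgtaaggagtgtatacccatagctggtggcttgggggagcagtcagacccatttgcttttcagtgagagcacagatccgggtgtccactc
Casp1, chr9:5298267-5298566, plus strand: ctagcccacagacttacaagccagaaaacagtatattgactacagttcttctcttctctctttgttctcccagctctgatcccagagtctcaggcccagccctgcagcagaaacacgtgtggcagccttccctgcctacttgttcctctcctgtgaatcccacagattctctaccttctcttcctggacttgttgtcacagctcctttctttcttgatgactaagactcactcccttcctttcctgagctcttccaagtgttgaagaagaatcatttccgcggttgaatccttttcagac
Dmrta2, chr4:109977775-109978074, plus strand: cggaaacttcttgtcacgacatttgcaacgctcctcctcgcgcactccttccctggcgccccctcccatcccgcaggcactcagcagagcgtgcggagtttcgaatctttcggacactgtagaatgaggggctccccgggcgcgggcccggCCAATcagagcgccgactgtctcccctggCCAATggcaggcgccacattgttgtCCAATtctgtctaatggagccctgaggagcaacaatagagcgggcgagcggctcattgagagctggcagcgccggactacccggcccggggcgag
Dmrta2 had 3 CCAAT matches, the shown Lypd1 promoter 2 that overlap on opposite strands, and Casp1 0. None of the 3 contained TATAAA on either strand, which 13.6% of all promoters did. CpG dinucleotides numbered 26 for Dmrta2, 9 for the shown Lypd1 promoter and 3 for Casp1, against a median of 7 over all promoters. The other listed Lypd1 starts had 12 and 17 CpG, with 0 and 2 CCAAT matches.

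Values below are normalized intensities on the log2 scale, and changes are late minus early. The late-early changes chose the genes, so they are described here with no test. Tests of the 5 genes in late or early cells against Control-NSC or Fibroblasts reuse the arrays that chose them. Their adjusted p-values are therefore a description of size against spread and no independent support. Across all 10144 genes, 4.83% were called (adjusted p under 0.05) between late and early lung cells, 23.8% between late and early limb cells, and 5.66% for the difference between these changes. The changes of the lines, alpNSCs minus elpNSCs, differed by -3.93 ± 0.18 for Lypd1 and by 2.26 ± 0.21 for Dmrta2 (SE), both detected in all groups. A group in which no array detected a gene has only a bound, set at the lowest detected signal. With such groups the difference was at least 3.62 for Casp1 and at least 2.62 for Sostdc1, and it has no bound for Anxa3, which was undetected in late cells of both lines. These bounds take groups detected on 1 array, late limb cells for Casp1 and early limb cells for Sostdc1, at their measured signal. In the fitted values, which take undetected groups at their measured signal, the genes next to Dmrta2 in size were Pla2g7 (2.41) and Anxa2 (-2.26), and Tubb6 (4.58), Igfbp4 (-3.60) and Jmjd8 (2.91), which are not among the 5, had larger differences than Dmrta2. Lypd1 and Sostdc1 differed mainly in one line. Lypd1 changed by -0.13 in lung cells, and Sostdc1 was at or near the detection limit in limb cells, late and early. Dmrta2 was higher in late cells of both lines, so that the name of a one-line change does not hold for it. Anxa3 was lower in late cells of both lines, in limb cells by at least 0.65, where its second probe was near the detection limit. Casp1 was lower in late limb cells and higher in late lung cells, there by at least 0.36. For Anxa3 and Casp1 the smaller change thus rests on signals near background. In arrays of whole cultures, fewer cells of a type and less RNA per cell cannot be told apart.

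**Figure D1:**
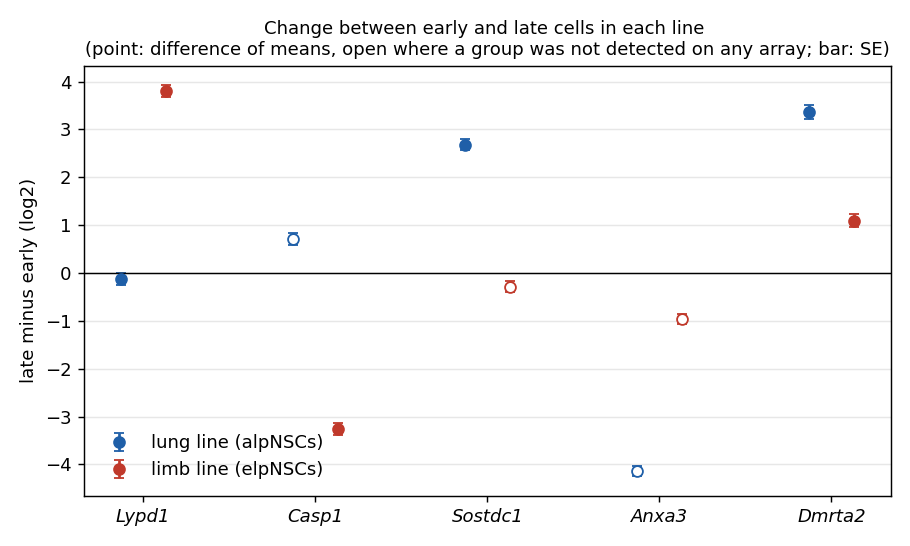
Late minus early change of each gene (log2, y axis) in the lung line (blue) and the limb line (red), with SE bars. Open points take a group in which no array detected the gene at its measured signal, so that only a bound holds for them. Lypd1 and Casp1 changed most in limb cells (3.80 and -3.26), Sostdc1 and Dmrta2 in lung cells (2.68 and 3.36), and Anxa3 in lung cells (at least 14.0-fold lower).

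Lypd1 was high in late limb cells only. In lung cells it lay at 7.04 and 7.10 in alpNSCs-late, against 7.18 and 7.22 in alpNSCs-early. In limb cells it lay at 10.44 and 10.52 in elpNSCs-late, against 6.57 and 6.78 in elpNSCs-early. It lay at 7.64 and 7.69 in Control-NSC and at 7.06 and 7.33 in Fibroblasts. The 2 late limb arrays thus stood above all other arrays, a 13.9-fold difference from early limb cells, while the difference in lung cells was -0.13. Before background correction the intensities were 1531.4 and 1922.4 in elpNSCs-late, against 151.0 and 182.3 in elpNSCs-early. The order of the groups was elpNSCs-late, Control-NSC, alpNSCs-early, Fibroblasts, alpNSCs-late and elpNSCs-early, and the arrays of Fibroblasts overlapped those of both lung groups.

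For Lypd1, late limb cells lay farther than early ones from both Control-NSC and Fibroblasts. They stood 2.81 ± 0.12 (SE) above Control-NSC when late and 0.99 below when early. Late limb cells, whose arrays took part in the choice of Lypd1, were thus 7.02-fold higher than Control-NSC (limma, adjusted p = 1.0e-08). They stood 9.73-fold above Fibroblasts (adjusted p = 1.7e-10). Early limb cells were lower than Control-NSC (1.98-fold, adjusted p = 9.7e-05) and than Fibroblasts (1.43-fold, adjusted p = 0.0033). Lung cells lay slightly under Control-NSC, by 1.51-fold when late (adjusted p = 0.0065) and 1.38-fold when early (adjusted p = 0.021). The call for late lung cells was lost without 1 of their arrays or 1 of Control-NSC (adjusted p = 0.059 and 0.057), and that for early lung cells without any one array of either group (adjusted p = 0.073 to 0.12) and with median scaling (adjusted p = 0.056). Against Fibroblasts the lung cells did not pass the test (-0.13 ± 0.12 late, 0.0061 ± 0.12 early, SE). Control-NSC were 1.38-fold above Fibroblasts (adjusted p = 0.0056), a call that was lost without 1 Fibroblast array (adjusted p = 0.070).

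Of 32 genes for other Ly6 proteins and nicotinic receptors 11 were tested. In late lung cells 0 were higher and 3 lower (2.11% and 2.72% of all genes), and in late limb cells 0 were higher and 3 lower (11.7% and 12.1% of all genes). The median change was -0.28 in lung and -0.071 in limb, against 0 for all genes in both. Lynx1, the brain modulator of nicotinic receptors, fell by 1.02 in late lung cells (adjusted p = 1.8e-04) and fell by 1.80 in late limb cells (adjusted p = 8.5e-07). Ly6e, a widely expressed surface protein, fell by 0.53 in late lung cells (adjusted p = 0.038) and fell by 1.19 in late limb cells (adjusted p = 6.0e-05). Ly6h was not detected in late limb cells, where it was at least 1.70-fold lower than in early ones (adjusted p = 0.0013). Chrnb1, the muscle receptor subunit, was not detected in late lung cells and was at least 2.06-fold lower there (adjusted p = 5.9e-04). Chrna4, the neuronal receptor subunit, lay at 8.32 ± 0.30 in elpNSCs-late and 8.61 ± 0.096 in elpNSCs-early (SD), while Chrna7 and Chrnb2 were not detected on any array.

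The genes closest to Lypd1 over the 12 arrays, among 4106 whose group means spanned at least 1 log2 unit, were Pou4f1 (r = 0.967), Isl1 (r = 0.966) and Gpr17 (r = 0.952). Pou4f1 and Isl1 are transcription factors of sensory and motor neurons, and Gpr17 marks oligodendrocyte precursors. All of them were higher in late limb cells, with changes of 1.95, 1.79 and 2.45 in limb cells. The lung changes were 0.11, -0.015 and 0.28. The 2 late limb arrays lie apart from the others in each of these pairs, and all the genes were read from the same arrays.

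**Figure D2:**
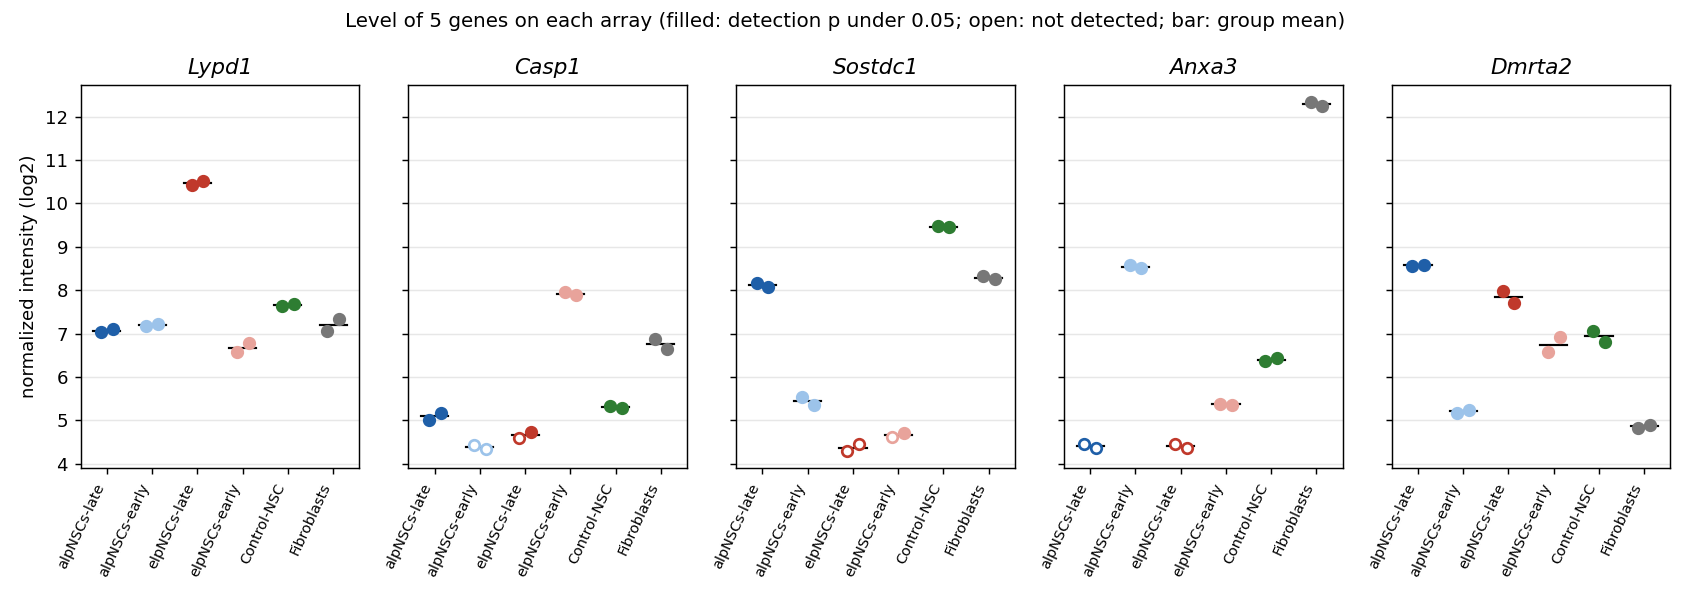
Normalized intensity (log2, y axis) of each gene on each array, by group (x axis), filled where detected and open where not, with the group mean as a bar. The 2 late limb arrays stand alone for Lypd1, at 10.44 and 10.52, and Anxa3 and Casp1 each have groups with no detected array.

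Casp1 was high in early limb cells only among the neural groups. It lay at 5.02 and 5.17 in alpNSCs-late, against 4.43 and 4.34 in alpNSCs-early, where neither array detected it. It lay at 4.58 and 4.74 in elpNSCs-late, where 1 array detected it, against 7.95 and 7.90 in elpNSCs-early. It lay at 5.33 and 5.29 in Control-NSC and at 6.88 and 6.65 in Fibroblasts. Late limb cells were 9.59-fold below early limb cells, and late lung cells were at least 1.28-fold above early lung cells. The late limb mean (4.66) lay near the detection limit and was taken at its measured signal, so folds and distances from it are approximate. Lung minus limb, the lines differed by 0.43 when late, and lung cells were below limb cells by at least 3.18 when early.

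The late level of Casp1 lay nearer Control-NSC in both lines. For limb cells the distance to Control-NSC was 0.65 when late and 2.61 when early, and that to Fibroblasts was 2.10 when late and 1.16 when early. For lung cells the distance to Control-NSC was 0.22 when late and at least 0.57 when early. Late limb cells were 1.57-fold below Control-NSC (adjusted p = 0.0028), a call that was lost without background correction (adjusted p = 0.062), and early limb cells were 6.10-fold above (adjusted p = 1.6e-08). Late lung cells did not pass the test against Control-NSC (-0.22 ± 0.12, SE), and early lung cells were at least 1.49-fold lower (adjusted p = 1.6e-04). Against Fibroblasts, late limb cells were 4.30-fold lower (adjusted p = 1.0e-08), late lung cells 3.18-fold lower (adjusted p = 1.0e-07) and early lung cells at least 4.07-fold lower (adjusted p = 3.5e-09). Early limb cells were 2.23-fold above Fibroblasts (adjusted p = 3.9e-06), and Control-NSC were 2.73-fold below them (adjusted p = 4.1e-07).

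Macrophage markers were at background in lung and limb cells, both where Casp1 was high and where it was low. None of 6 macrophage and microglia markers was detected on an array of the lung or limb cells, and their summed linear intensity was 116.9 to 119.5 in late limb cells and 117.4 to 119.4 in early limb cells. In Fibroblasts, the group with the second highest Casp1 mean (6.76), the sum was 686 to 783. Lyz2 at 9.26 ± 0.17 and Aif1 at 5.02 ± 0.33 (SD) were detected on both Fibroblast arrays. Fcer1g (4.50) was detected on 1 of them, and Ptprc, Tyrobp and Itgam on neither. The part of these markers in the Casp1 level of Fibroblasts was not tested. Among 34 inflammasome genes 17 were tested. In late lung cells 1 was higher and 0 were lower (2.11% and 2.72% of all genes). In late limb cells 1 was higher and 3 were lower (11.7% and 12.1% of all genes). The median change was 0.038 in lung and -0.065 in limb. Myd88, the adaptor of Toll-like and interleukin-1 receptors, fell by 1.03 in late limb cells (adjusted p = 1.7e-04). Casp4, the noncanonical inflammasome protease, fell by 0.79 there (adjusted p = 3.0e-04), and Il18, a Casp1 substrate, fell by 0.68 (adjusted p = 0.0015). Il1rap, an interleukin-1 receptor subunit, rose by 0.58 in late limb cells (adjusted p = 0.0031) and was at least 1.31-fold higher in late than in early lung cells, where it was not detected when early (adjusted p = 0.018). Pycard, the inflammasome adaptor, was not detected on any array. The pore-former Gsdmd lay at 4.71 ± 0.049 in elpNSCs-late and 4.77 ± 0.029 in elpNSCs-early, against 9.08 ± 0.18 in Fibroblasts (SD). Pla2g7, a secreted phospholipase, was the gene closest to Casp1 over the 12 arrays (r = 0.944). Its levels were 4.37 in elpNSCs-late, under the lowest detected signals, 6.96 in elpNSCs-early and 6.76 in Fibroblasts. Fzd1 (r = 0.912) and Slc16a4 (r = 0.902) followed.

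Sostdc1 was present in late lung cells near its level in Fibroblasts, and at or near the detection limit in limb cells. It lay at 8.18 and 8.08 in alpNSCs-late, against 5.53 and 5.36 in alpNSCs-early. It lay at 4.29 and 4.45 in elpNSCs-late, where neither array detected it, against 4.62 and 4.70 in elpNSCs-early, where 1 array did. It lay at 9.47 and 9.46 in Control-NSC and at 8.33 and 8.25 in Fibroblasts. Late lung cells were 6.43-fold above early lung cells. Lung minus limb, the lines differed by at least 3.41 when late and by 0.79 when early.

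For Sostdc1, late lung cells lay nearer than early ones to both Control-NSC and Fibroblasts. The distance to Control-NSC was 1.34 when late and 4.02 when early, and the distance to Fibroblasts was 0.16 when late and 2.84 when early. Fibroblasts were the nearer of the pair, and late lung cells did not pass the test against them (-0.16 ± 0.11, SE, adjusted p = 0.26). Late lung cells were 2.52-fold below Control-NSC (adjusted p = 5.1e-06), and early lung cells 16.2-fold below (adjusted p = 2.7e-10). Limb cells were at least 26.8-fold below Control-NSC when late (adjusted p = 3.3e-11) and 28.0-fold below when early (adjusted p = 1.2e-10), where 1 of 2 arrays detected it. They were at least 11.9-fold below Fibroblasts when late (adjusted p = 1.5e-11) and 12.4-fold below when early (adjusted p = 3.4e-11). The early mean (4.66) lay under the lowest detected signals, so no order of late and early limb cells is read from these folds. Control-NSC were 2.26-fold above Fibroblasts (adjusted p = 1.7e-06), and early lung cells were 7.17-fold below them (adjusted p = 3.5e-10).

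Of 45 BMP and Wnt antagonists, ligands and receptors 29 were tested, and in late lung cells 0 were higher and 3 lower (2.11% and 2.72% of all genes). In late limb cells 6 were higher and 7 lower (11.7% and 12.1% of all genes). The median change was -0.041 in lung and -0.0063 in limb. Fstl1, a secreted follistatin-like BMP antagonist, fell by 1.09 in late lung cells (adjusted p = 2.7e-04) and by 0.43 in late limb cells (adjusted p = 0.033). Sfrp2, a secreted Wnt antagonist, fell by 0.85 in late lung cells (adjusted p = 0.0036) and rose by 0.44 in late limb cells (adjusted p = 0.042). Sfrp1 fell by 0.81 in late lung cells (adjusted p = 0.0096), where 1 array detected it at a group mean of 4.77. It fell by 1.11 in late limb cells (adjusted p = 3.0e-04). Bmper, a secreted modulator of BMP activity, fell by 0.89 in late limb cells (adjusted p = 2.1e-04), and Bmp1, a procollagen protease despite its name, fell by 0.81 (adjusted p = 2.9e-04). Sost, the closest paralogue of Sostdc1, was not detected on any array. Lrp4, a receptor that binds Sostdc1, lay at 9.52 ± 0.0036 in alpNSCs-late and 9.77 ± 0.12 in alpNSCs-early (SD). In limb cells Lrp4 lay at 7.43 ± 0.13 when late and 8.10 ± 0.31 when early. The ligand Bmp7 lay at 7.55 ± 0.071 in alpNSCs-late and 7.28 ± 0.12 in alpNSCs-early. It lay at 6.88 ± 0.23 in elpNSCs-late and 6.27 ± 0.15 in elpNSCs-early (SD). Setd6 (r = 0.925), Eif4ebp1 (r = 0.898) and Rab15 (r = 0.891) were the genes closest to Sostdc1 over the 12 arrays, with lung changes of 0.14, 0.45 and 0.31.

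Anxa3 was detected in early but not in late cells of both lines, with the larger difference in lung cells. It lay at 4.45 and 4.36 in alpNSCs-late, where neither array detected it, against 8.58 and 8.51 in alpNSCs-early. It lay at 4.45 and 4.36 in elpNSCs-late, again undetected, against 5.38 and 5.36 in elpNSCs-early. It lay at 6.37 and 6.43 in Control-NSC and at 12.33 and 12.25 in Fibroblasts. Late lung cells were at least 14.0-fold below early lung cells, and late limb cells at least 1.57-fold below early limb cells. Lung minus limb, the lines differed by 3.17 when early, and both were undetected when late. The second Anxa3 probe gave 4.25 in alpNSCs-late, undetected, and 8.06 in alpNSCs-early. In limb cells it gave 4.31 in elpNSCs-late, undetected, and 4.70 in elpNSCs-early, where 1 array detected it. No limb difference is read from this probe.

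The late level of Anxa3 in lung cells was on the other side of Control-NSC than the early level. The distance to Control-NSC was at least 1.67 when late (below) and 2.14 when early (above), so which is nearer cannot be told. The distance to Fibroblasts was at least 7.56 when late and 3.75 when early. Late lung cells were at least 3.18-fold below Control-NSC (adjusted p = 6.3e-08), and early lung cells 4.42-fold above (adjusted p = 3.3e-08). Late limb cells were at least 3.2-fold below Control-NSC (adjusted p = 5.6e-08) and early limb cells 2.04-fold below (adjusted p = 1.9e-05). All other groups were below Fibroblasts, early lung cells by 13.4-fold (adjusted p = 1.2e-11), early limb cells by 121-fold (adjusted p = 1.6e-13) and Control-NSC by 59.4-fold (adjusted p = 4.0e-13). The bound was at least 189-fold for late lung cells (adjusted p = 7.6e-14) and at least 190-fold for late limb cells (adjusted p = 7.3e-14).

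Of 23 annexins and S100 partners 18 were tested. In late lung cells 0 were higher and 1 lower (2.11% and 2.72% of all genes). In late limb cells 1 was higher and 6 lower (11.7% and 12.1% of all genes). The median change was -0.044 in lung and -0.059 in limb. Anxa2, an annexin that pairs with S100a10, fell by 2.26 in late lung cells (adjusted p = 1.3e-07) and changed by 0.0028 in limb cells. It lay at 8.58 ± 0.14 in alpNSCs-late and 10.84 ± 0.032 in alpNSCs-early (SD). S100a13 fell by 2.42 in late limb cells (adjusted p = 3.7e-05), S100a1 fell by 2.27 (adjusted p = 2.5e-05) and Anxa5 fell by 1.07 (adjusted p = 8.8e-05). Anxa1 was not detected in lung cells or in early limb cells. It lay at 5.38 ± 0.074 in elpNSCs-late and at 10.31 ± 0.078 in Fibroblasts (SD). Anxa1 was the 1 gene of the list called higher in late limb cells (adjusted p = 2.0e-04). The genes closest to Anxa3 over the 12 arrays were Emc9 (r = 0.987), Gpr153 (r = 0.977) and Tmem141 (r = 0.974). Their lung changes were -2.21, -1.27 and -0.76. The late lung means of Emc9 (4.35) and Gpr153 (4.37) lay under the lowest detected signals, so these 2 sizes are approximate. In each of the 3 genes, as in Anxa3, the Fibroblast mean was the highest of the 6 groups.

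Dmrta2 was higher in late than in early cells of both lines. It lay at 8.56 and 8.58 in alpNSCs-late, against 5.17 and 5.25 in alpNSCs-early. It lay at 7.97 and 7.71 in elpNSCs-late, against 6.57 and 6.92 in elpNSCs-early. It lay at 7.05 and 6.81 in Control-NSC and at 4.83 and 4.88 in Fibroblasts. The late cells of both lines stood above all other arrays, by 10.3-fold over early cells in the lung line and 2.14-fold in the limb line. Lung minus limb, the lines differed by 0.73 when late and by -1.53 when early.

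Late cells of both lines exceeded Control-NSC for Dmrta2, by 3.11-fold in lung cells (adjusted p = 6.9e-06) and 1.87-fold in limb cells (adjusted p = 9.6e-04). Early lung cells were 3.31-fold below Control-NSC (adjusted p = 3.5e-06), and early limb cells did not pass the test (-0.19 ± 0.15, SE). The distance of lung cells to Control-NSC was therefore almost the same, 1.64 when late and 1.72 when early, on opposite sides. Against Fibroblasts, late lung cells were 13.1-fold higher (adjusted p = 2.3e-10), late limb cells 7.89-fold higher (adjusted p = 1.9e-09) and early limb cells 3.69-fold higher (adjusted p = 2.0e-07). Early lung cells were 1.27-fold above Fibroblasts, which missed the threshold (adjusted p = 0.054) and passed it under 8 of the alternative settings (adjusted p = 0.0095 to 0.0497). Control-NSC were 4.21-fold above Fibroblasts (adjusted p = 7.0e-08).

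Of 36 Dmrt and cortical patterning genes 14 were tested. In late lung cells 0 were higher and 2 lower (2.11% and 2.72% of all genes). In late limb cells 1 was higher and 2 lower (11.7% and 12.1% of all genes). The median change was -0.062 in lung and 0.019 in limb. Hes5, a Notch effector, fell by 4.14 in late lung cells (adjusted p = 1.0e-09) and fell by 4.13 in late limb cells (adjusted p = 1.6e-09). Only 1 late limb array detected it, at a group mean of 4.72 near the detection limit, so the limb size is approximate. Hes1, another Notch effector, fell by 1.94 in late lung cells (adjusted p = 1.9e-06) and fell by 1.53 in late limb cells (adjusted p = 9.4e-06). Dmrta2 is known in the mouse to maintain Hes1 in neural progenitors, and here Hes1 lay at 8.34 ± 0.043 in alpNSCs-late and 10.28 ± 0.013 in alpNSCs-early (SD). Dlx1, a ventral forebrain factor, rose by 0.76 in late limb cells (adjusted p = 0.0092). The relatives Dmrta1 and Dmrt3, and Gsx2, a ventral factor, were not detected on any array. Isl2 (r = 0.907), Cacng4 (r = 0.900) and Nt5e (r = 0.895) were the genes closest to Dmrta2 over the 12 arrays, with lung changes of 1.32, 1.24 and 0.90. The early lung mean of Isl2 (4.57) lay under the lowest detected signals, so its change is approximate.

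**Figure D3:**
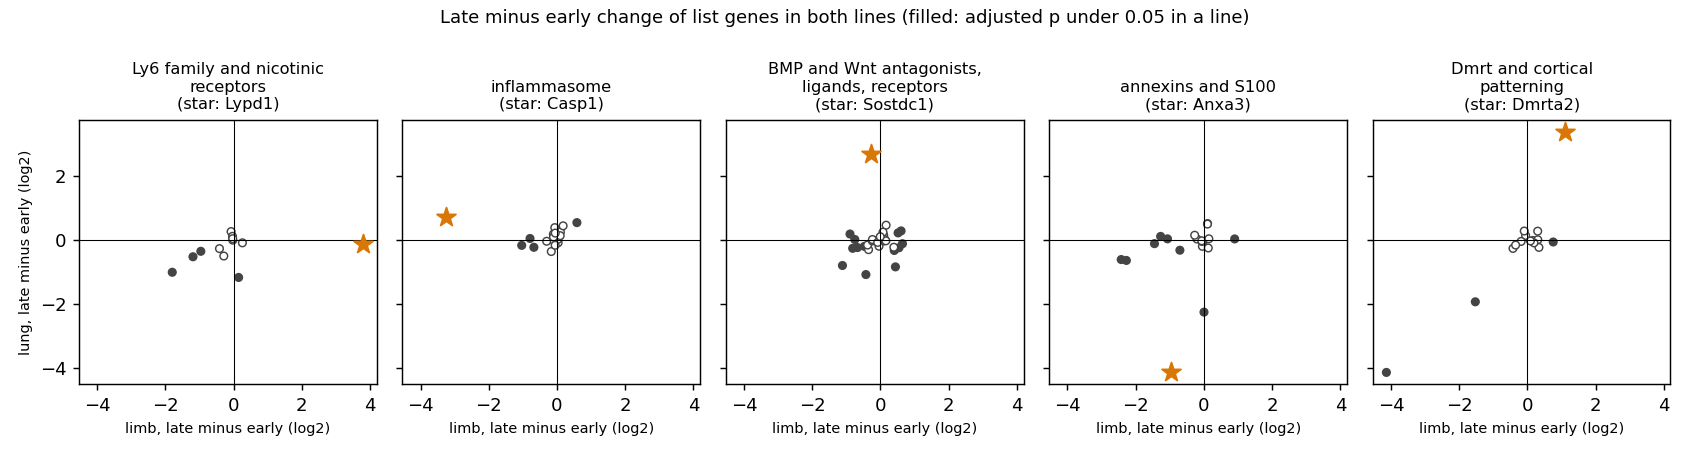
Late minus early change (log2) in limb cells (x axis) and lung cells (y axis) of the tested genes of each list, filled where called in either line, with the list's own gene as a star. The stars were chosen by these changes, so their place is a description. Hes5 is the point at the lower left of the panel of Dmrta2.

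Across the 5 genes, late lung cells differed from Control-NSC in 4, against 12.4% of all genes, and early lung cells in 5, against 18.2%. Late limb cells differed in 5, against 15.3%, and early limb cells in 4, against 26.1%. Against Fibroblasts late lung cells differed in 3 (62.1% of all genes), early lung cells in 3 (60.6%), late limb cells in 5 (63.0%), early limb cells in 5 (59.1%), and Control-NSC in 5 (61.9%). These comparisons share arrays with the changes that chose the genes and with each other, so nothing is read from the counts. Late lung cells lay nearer Control-NSC than early lung cells did for Sostdc1, Casp1 and Dmrta2, against 56.8% of all genes, and for Anxa3 this could not be told. For Dmrta2 that was by 0.089 only, with late and early cells on opposite sides of its level. It turned round without background correction (1.17 late, 0.77 early), with a normexp offset of 50 (1.40 late, 1.14 early) and without the first Control-NSC array (1.76 late, 1.60 early). Late limb cells lay nearer Control-NSC for Casp1 and farther for Lypd1, Anxa3 and Dmrta2, against 58.3% of all genes nearer. Late lung cells lay nearer Fibroblasts for Sostdc1 and Casp1 and farther for Lypd1, Anxa3 and Dmrta2, against 44.0% of all genes nearer. For Lypd1 this turned round without the second Fibroblast array (0.0090 late, 0.14 early). Late limb cells lay farther from Fibroblasts for Lypd1, Casp1, Anxa3 and Dmrta2, against 42.3% of all genes nearer. For Sostdc1 in limb cells neither distance could be ordered, since late cells had only a bound.

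**Figure D4:**
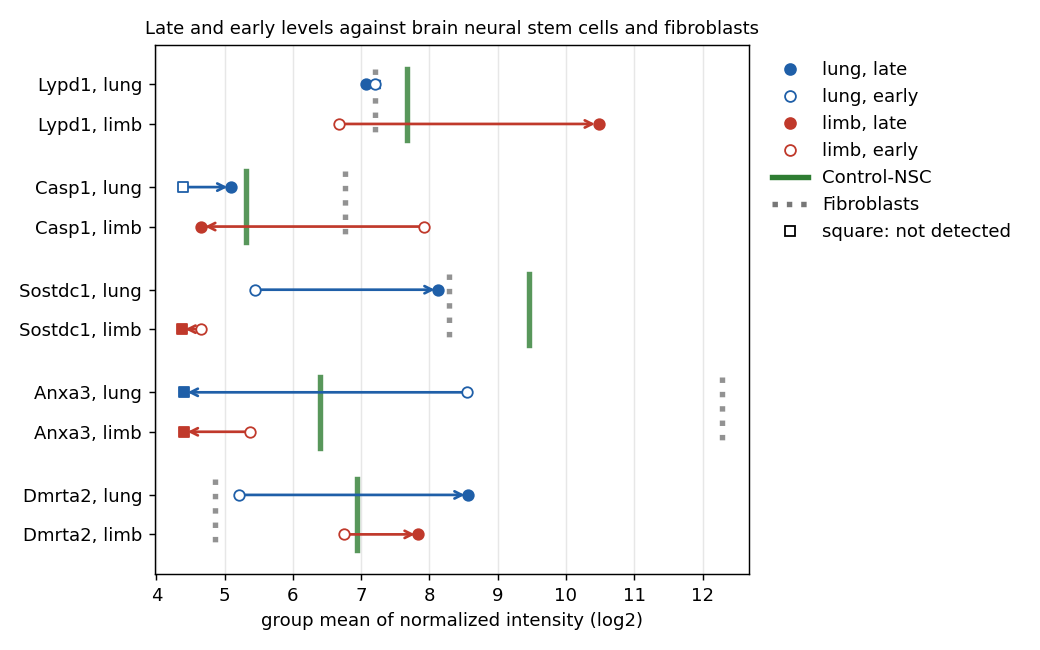
Group means (log2, x axis) of late (filled) and early (open) lung (blue) and limb (red) cells for each gene, with an arrow toward the late mean and the means of Control-NSC (green line) and Fibroblasts (dotted line). Squares are groups in which no array detected the gene, plotted at their measured signal. The arrow of Sostdc1 in lung cells ends 0.16 from Fibroblasts, and that of Lypd1 in limb cells ends 2.81 above Control-NSC.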

How the data were processed

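Biotin-labelled RNA of 12 samples had been hybridized to Illumina bead arrays. The deposited raw table holds signal intensities on a linear scale, not normalized, and detection p-values, exported by the authors with BeadStudio 3.2 per the submitters' processing notes. The authors also deposited a table on the log2 scale, normalized by them (lumi and RMA are named in the notes). Its correlation with the values analysed was r = 0.985 to 0.986.

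Normalization and tests used limma 3.58.1 (R 4.3.3). The raw intensities went through neqc (normexp with negative controls inferred from detection p, offset 16, quantile normalization, log2), and a probe was kept at detection p under 0.05 on at least 2 arrays (14869 of 25697). A gene took its kept probe with the highest mean (10144 genes). Of the probes 23978 had 1 symbol in the platform annotation, 0 several and 1719 none, and 23962 matched RefSeq (GRCm38.p6). One model over all arrays (6 residual degrees of freedom) gave two-sided moderated tests with Benjamini-Hochberg adjustment over all genes, called under 0.05. The fit was tested on simulated data. A group with no detected array has only a bound, taken as the higher, per array, of its own signal and the lowest detected signal (4.63 to 4.80). The number of arrays limits the precision. No slide or scan information was used.

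The members and lists were chosen with earlier results of these data known. Named genes were the 5 genes, the 3 genes most correlated with each, partners, and up to 3 called genes of each list per line with the smallest p. Alternatives were the deposited values, other backgrounds, scalings, filters, probe summaries, priors and sets of arrays, a replicate block, and each array left out. Figures were drawn with matplotlib 3.10.9.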

Additional observations from a re-analysis of the deposited data

Results flagged for a closer look

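Among the genes of the 5 lists, the late-early change of 14 differed between the lines by the interaction term of the limma model (log2, alpNSCs minus elpNSCs). Of all genes 5.66% were called for this difference. Tested were 11 Ly6 and nicotinic receptor, 29 BMP and Wnt, 17 inflammasome, 18 annexin and S100, and 14 Dmrt and cortical patterning genes. The lists were chosen with earlier results known, so nothing is read from the count. In the Ly6 and nicotinic receptor list these were Lynx1 (0.78, adjusted p = 0.015), which fell in both lines, and Chrnb1 (-1.33, adjusted p = 0.0038). In the BMP and Wnt list these were Bmper (1.07, adjusted p = 0.0027), Sfrp2 (-1.29, adjusted p = 0.0027) and Bmpr1b (-0.74, adjusted p = 0.032). In the inflammasome list these were Myd88 (0.86, adjusted p = 0.020) and Casp4 (0.83, adjusted p = 0.0089). In the annexin and S100 list these were S100a1 (1.63, adjusted p = 0.011), S100a13 (1.80, adjusted p = 0.011), S100b (1.33, adjusted p = 0.033), Anxa5 (1.09, adjusted p = 0.0033), Anxa6 (1.37, adjusted p = 0.0054), Anxa1 (-0.88, adjusted p = 0.0094) and Anxa2 (-2.26, adjusted p = 6.6e-06). Bmpr1b, S100b, Anxa6, and the limb change and the difference of Anxa1, fell outside the rule for named genes and are named after their values were seen. Chrnb1 and S100a1 were undetected in late lung cells, Casp4 in both lung groups, and Anxa1 in both lung groups and early limb cells, so the sizes of these differences rest on signals at background. Groups of 2 arrays were too small to look for single arrays that stand apart.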

How the results depend on the processing

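The counts of the 5 genes called against Control-NSC and Fibroblasts stayed within 1.5 times their values under all alternatives and with each array left out. At counts this small the limit still lets a call be lost or gained. Calls of Lypd1 in lung cells and in Control-NSC, and of Casp1 in late limb cells, were lost under some settings. That of Dmrta2 in early lung cells was gained under some, as given above. Counts over all genes moved more. Between early limb cells and Control-NSC 1729 genes were called from only the arrays compared, against 2644. Between late and early limb cells 944 were called from only the arrays compared, against 2413. The difference between the lines was called for 326 genes with the deposited values and 290 with only the arrays compared, against 574. Leaving out 1 array gave 818 to 1456 genes between late lung cells and Control-NSC (1258 with all arrays), 940 to 1804 between late limb cells and Control-NSC (1553), and 1729 to 2725 between early limb cells and Control-NSC. It gave 231 to 622 between late and early lung cells (490), 1602 to 2307 between late and early limb cells, and 278 to 810 for the difference between the lines. 3 differences of Lypd1 from Fibroblasts, none of them called, changed sign: with 1 array left out, late lung cells ranged over -0.26 to 0.0090 and early lung cells over -0.13 to 0.14, the change of sign coming without a Fibroblast array or, for early lung cells (-0.017), without their second array. The cause was not tested. With the deposited values, changes of low genes were larger (Sostdc1 -1.08 and Anxa3 -2.34 in limb cells, Casp1 1.95 in lung cells), and without background correction they were smaller (Lypd1 3.02 and Casp1 -1.59 in limb cells, Anxa3 -2.16, Dmrta2 1.94 and Sostdc1 1.51 in lung cells). Median scaling moved the median limb change of all genes by 0.15. Between groups, deviations from the group mean correlated weakly by replicate number (15 pairs, r = -0.15 to 0.24, 10 over 0.1). Whether replicate numbers mark a shared batch was not tested, and the main model holds no such term. The replicate block changed no call of the 5 genes against Control-NSC or Fibroblasts. With the block, 535 genes were called between late and early lung cells (490 without it). Between late and early limb cells 2621 were called (2413 without it).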
